A study of Danio rerio with 6 samples.

Results

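The genes described here are 10 zebrafish genes of the heart, taken by name from a table of 31953 genes. They comprise the contractile genes *myl7*, *vmhc*, *myh6* and *tnnt2a*, the hormone gene *nppa*, and the transcription factor genes *nkx2.5*, *gata4*, *gata5*, *hand2* and *tbx5a*. RNA-seq was carried out on whole AB embryos at 30 hours post-fertilisation (hpf), and each group, the mock control and the *dancr* del F0 crispants, had 3 libraries. Crispants carried a CRISPR-Cas9 deletion of the promoter of the long non-coding RNA gene *dancr*, made by injecting a pool of guides with Cas9 at the single cell stage, and mock controls received the mixture without the targeting crRNA. About 30 embryos were used in each group, and it is not stated whether this holds for each library. F0 crispants are mosaic, and those sequenced were chosen as the most severely malformed embryos (Class I and II, with trunk or tail poorly formed and visible necrosis), so that the groups differ in morphology as well as in genotype.

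At this stage the zebrafish heart is a beating tube that is starting to loop, with a ventricle and an atrium that use different myosin heavy chains. The heart muscle arises from lateral plate mesoderm under the control of GATA, T-box, Nkx and Hand transcription factors, which are used again in the gut, pharyngeal arches, fin buds and eye. Mutants of several of the genes are classics of zebrafish genetics: *silent heart* (*tnnt2a*), *half-hearted* (*vmhc*), *weak atrium* (*myh6*), *faust* (*gata5*), *hands off* (*hand2*) and *heartstrings* (*tbx5a*).

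In crispants the contractile genes, the hormone gene, *hand2*, *nkx2.5* and *tbx5a* were at lower mean levels. *gata4* and *gata5* were at higher ones, but no gene of the 10 passed the threshold. A gene was called when its edgeR p, adjusted by Benjamini-Hochberg over the 20812 genes tested, did not exceed 0.05 and its level differed by 1 or more on the log2 scale. All 10 genes passed the filter on low counts, and 0 of them were called, where 0.0% of all genes tested were called. DESeq2 on the same counts also called 0 of the 10, and it called 0.794% of the 20779 genes to which it gave an adjusted p. At an unadjusted p under 0.05 there were 3 of the 10 genes, against 5.49% of all genes tested. *vmhc* and *myl7* were lower in crispants, as were 2.47% of all genes at that p, and *gata5* was higher, as were 3.01%. The log2 fold change was below 0 for 8 of the 10 genes and above 0 for *gata4* and *gata5*. The median over the 10 was -0.59, against -0.039 over all genes tested, and without mock control replicate 3, a library described next, these were -0.32 and 0.011.

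Between 33841805 and 40515803 reads were counted on genes in each library. Mock control replicate 3 stood apart from the other 5 libraries, with a TMM scaling factor of 0.749 against 0.988 to 1.14, and 33.4% of its reads fell on its top 100 genes, against 24.2% to 26.9% elsewhere. The paper's methods call the libraries biological replicates. Among the 3 mock control libraries, replicate 3 held the highest level of 7 of the 10 heart genes and the lowest of the other 3 (*myh6*, *gata4* and *tbx5a*), so the value without it is given beside a result that it moves.

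*myl7* (ENSDARG00000019096, chromosome 8 of GRCz10, 40417522 to 40425350, minus strand) encodes the regulatory light chain of cardiac myosin and marks the muscle of both chambers. Its level in CPM (read counts scaled to a common library total, after TMM adjustment) was 27.4, 31.3 and 46.8 in mock control replicates 1, 2 and 3. In crispant replicates 1, 2 and 3 it was 15.8, 29.4 and 17.7 CPM. Crispant replicate 2 lay within the mock control range and the other crispants lay below it, so that the groups overlapped. The mean was 35.2 ± 10.3 CPM (SD, n = 3) in mock controls and 21.0 ± 7.38 CPM (SD, n = 3) in crispants. On the log2 scale *myl7* was at -0.75 (standard error 0.32, adjusted p = 0.891, edgeR with Benjamini-Hochberg adjustment). With mock control replicate 3 left out it was at -0.47, with a 95% interval from -1.06 to 0.11. In whole embryos, fewer heart muscle cells and less RNA per cell cannot be told apart.

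*vmhc* (ENSDARG00000079564, chromosome 2, 24600869 to 24614260, minus strand), the myosin heavy chain of the ventricle, had 43.0, 61.2 and 84.3 CPM in mock control replicates 1, 2 and 3. The crispant replicates had 26.8, 42.4 and 35.7 CPM, each below every mock control library. It was the only one of the 10 genes whose groups lay apart in this direction, where 5.44% of all genes tested did so. The gap was narrow, from 42.4 CPM in crispant replicate 2 to 43.0 CPM in mock control replicate 1. *vmhc* had a log2 fold change of -0.85 (95% interval -1.51 to -0.18) and an adjusted p of 0.743. Leaving out mock control replicate 3 gave -0.56 and an adjusted p of 0.406. When limma-voom weighted the libraries by their quality, an alternative chosen after seeing the data, *vmhc* was at -0.91 with an adjusted p of 0.045, short of the minimum fold change. No other of the 10 genes had an adjusted p under 0.05 there, where 2.31% of all genes reached it, 0.682% with lower levels in crispants, and where 1.56% were called. A similar gene, *vmhcl*, lies next to *vmhc* on chromosome 2, and reads they share may be split between them.

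*myh6* (ENSDARG00000090637, chromosome 20, 53772085 to 53778019, plus strand) encodes the myosin heavy chain of the atrium. Mock control replicates 1, 2 and 3 had 9.23, 10.5 and 5.95 CPM, and the crispant replicates had 5.54, 5.50 and 7.11 CPM. Mock control replicate 3 lay among the crispants, while the other mock controls lay above all of them. Its log2 fold change was -0.50 (95% interval -1.24 to 0.23), and it was -0.69 without that library (95% interval -1.25 to -0.12, adjusted p = 0.355, edgeR with Benjamini-Hochberg adjustment). *myh6* was thus the one contractile gene whose difference became larger when that library was left out. It shares chromosome 20 with the *dancr* locus but lies 30.6 megabases from *snora26*, one of the snoRNA genes hosted by *dancr*. *gata4* is on the same chromosome, 29.96 megabases from *snora26*.

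*tnnt2a* (ENSDARG00000020610, chromosome 23, 5719252 to 5751200, minus strand) encodes cardiac troponin T, without which the heart does not beat. It had 7.84, 10.8 and 28.4 CPM in mock control replicates 1, 2 and 3, and 5.89, 10.8 and 5.68 CPM in the crispants. Crispant replicate 2 reached the level of mock control replicate 2, and mock control replicate 3 was 3.04 times the mean of the other mock controls. The log2 fold change of -1.07 (standard error 0.51, adjusted p = 0.962, edgeR with Benjamini-Hochberg adjustment) was the lowest of the 10. It was -0.32 without that library, with a 95% interval from -1.06 to 0.43.

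*nppa* (ENSDARG00000052960, chromosome 8, 48624271 to 48628895, plus strand) encodes the natriuretic peptide A that heart muscle secretes. Its mock control levels were 4.13, 2.53 and 9.21 CPM, and its crispant levels were 3.23, 1.82 and 4.03 CPM. The groups overlapped, and 2 of the crispants lay above mock control replicate 2. For *nppa* the log2 fold change was -0.80 (95% interval -2.03 to 0.42), and without mock control replicate 3 it was -0.12. No difference was detectable for *nppa* with or without that library, and the other libraries held 73 to 166 counts each.

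**Figure D1:**
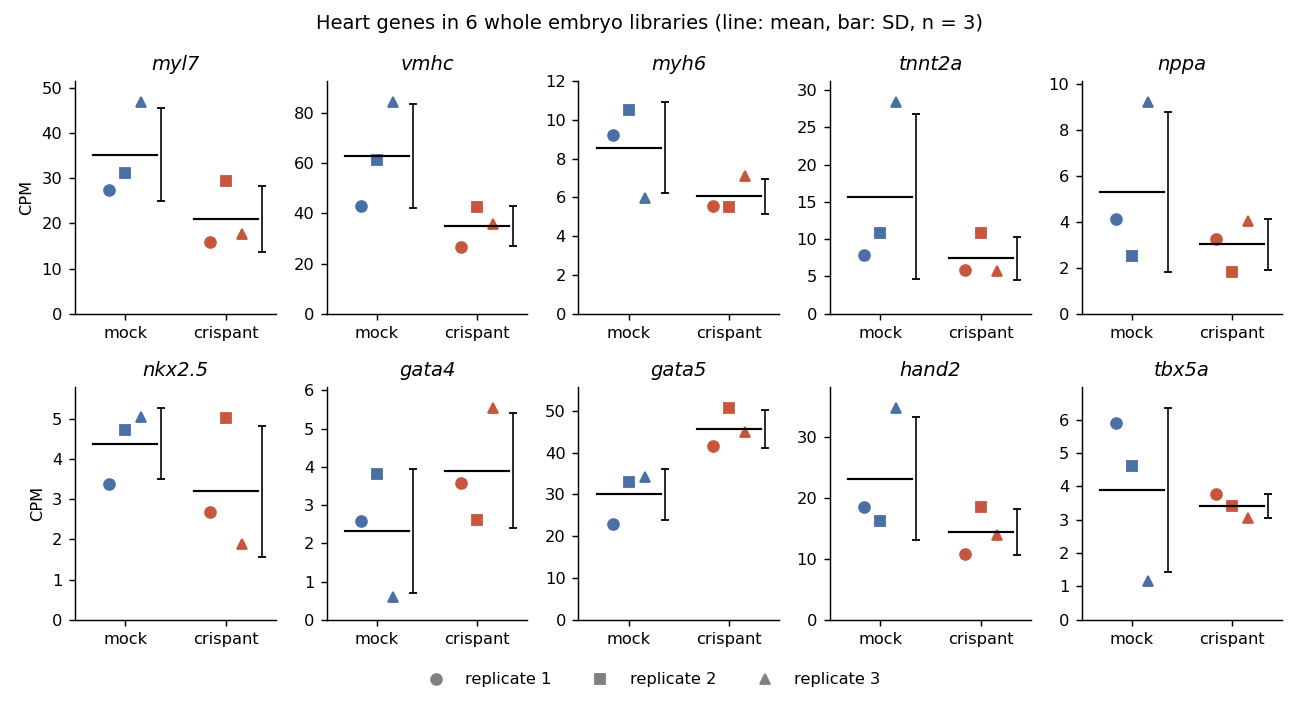
Level of each of the 10 heart genes in CPM (vertical axis from 0, its own scale for each gene) in the 3 mock control and 3 crispant libraries; each symbol is a library, horizontal lines are means and bars are SDs. Only *vmhc* and *gata5* have groups that do not overlap, and mock control replicate 3 (blue triangle) is at an extreme of the mock controls for every gene.

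Of the transcription factor genes, *gata4* and *gata5* had log2 fold changes in the direction opposite to the contractile genes, and only the groups of *gata5* lay apart. *gata5* (ENSDARG00000017821, chromosome 23, 7445756 to 7457056, plus strand) encodes a zinc finger factor that acts in both heart precursors and endoderm. It had 23.0, 33.1 and 34.1 CPM in mock control replicates 1, 2 and 3, and 41.5, 50.6 and 44.8 CPM in the crispant replicates. Every crispant library lay above every mock control library, which 6.5% of all genes tested also did. The mean was 30.1 ± 6.11 CPM (SD, n = 3) in mock controls and 45.7 ± 4.59 CPM (SD, n = 3) in crispants. *gata5* had a log2 fold change of 0.60 (95% interval 0.091 to 1.11) and an adjusted p of 0.789. Leaving out mock control replicate 3 gave 0.72 (standard error 0.20, adjusted p = 0.245, edgeR with Benjamini-Hochberg adjustment), and over all single-library omissions the value lay between 0.44 and 0.72.

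*gata4* (ENSDARG00000098952, chromosome 20, 53146699 to 53162461, minus strand), a paralogue of *gata5* used in heart, gut and liver, had the largest standard error of the 10 genes, 0.63 on the log2 scale. It had 2.58, 3.81 and 0.595 CPM in mock controls and 3.58, 2.60 and 5.53 CPM in crispants. Mock control replicate 3 held only 17 counts, against 93 and 146 in the other mock controls, and apart from it the groups overlapped. Its log2 fold change was 0.74 (95% interval -0.69 to 2.18), and without that library it was 0.31. *gata6*, of the same subfamily and of the list of other heart regulators, had 39.5, 38.6 and 47.9 CPM in mock controls and 49.3, 53.2 and 63.0 CPM in crispants. Its groups did not overlap, and its log2 fold change was 0.39 (standard error 0.20, adjusted p = 0.979, edgeR with Benjamini-Hochberg adjustment). The GATA genes of the blood, ectoderm and nervous system gave other values, with log2 fold changes of 0.14 for *gata3*, -0.28 for *gata2a*, -0.45 for *gata1a* and -0.092 for *gata2b*, all with overlapping groups. Without mock control replicate 3 they were at 0.19, -0.19, -0.30 and 0.56, and *gata6* was at 0.52. The groups of *gata3* then lay apart with crispants higher, as did 15.1% of all genes. *gata2b* held only 12 to 39 counts per library. The GATA family was set side by side after its values were seen.

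*hand2* (ENSDARG00000008305, chromosome 1, 37473969 to 37475834, minus strand) encodes a basic helix-loop-helix factor needed for heart muscle to form, and is also used in the pharyngeal arches and fin buds. It had 18.5, 16.1 and 34.6 CPM in mock controls and 10.8, 18.4 and 13.9 CPM in crispants. The groups overlapped, and mock control replicate 3 was 2.00 times the mean of the other mock controls. Its log2 fold change was -0.68 (95% interval -1.49 to 0.13), and without that library it was -0.25.

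*nkx2.5* (ENSDARG00000018004, chromosome 14, 23943996 to 23946789, plus strand), the homeobox gene that marks heart precursors early, had 3.38, 4.72 and 5.04 CPM in mock controls. Its crispant levels were 2.69, 5.02 and 1.89 CPM, so that crispant replicate 2 lay near the top of the mock control range and the other crispants below it. For *nkx2.5* the log2 fold change was -0.45 (95% interval -1.45 to 0.54), it was -0.33 without mock control replicate 3, and over all single-library omissions it lay between -0.91 and -0.18. At 78 to 201 counts per library the interval covers differences in both directions.

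*tbx5a* (ENSDARG00000024894, chromosome 5, 71474532 to 71505142, minus strand) encodes a T-box factor of the heart, the pectoral fin and the dorsal eye. It had 5.90, 4.61 and 1.16 CPM in mock controls and 3.77, 3.42 and 3.06 CPM in crispants. The crispants lay between mock control replicate 3 and the other mock controls. The log2 fold change was -0.19 (standard error 0.55), and its sign depended on the library left out: without mock control replicate 3 it was -0.61 (95% interval -1.25 to 0.04), and without mock control replicate 1 it was 0.24. In the authors' table all of *tbx5a* lies within *ddx54*, on the opposite strand, and part of it overlaps *tbx3a* on the same strand. Reads of the overlapping genes can be lost or misassigned in counting.

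Leaving out mock control replicate 3, the groups of 4 of the 10 genes did not overlap: *vmhc*, *myh6* and *tbx5a* were lower in crispants and *gata5* was higher. With 2 libraries against 3, 29.4% of all genes tested had groups that did not overlap, 14.3% with lower and 15.1% with higher levels in crispants. In that comparison 0 of the 10 genes were called by edgeR, where 0.0935% of all genes were, and the adjusted p of the 10 ran from 0.245 for *gata5* to 0.941 for *nppa* (edgeR with Benjamini-Hochberg adjustment). At an unadjusted p under 0.05 there were again 3 genes, now *vmhc*, *myh6* and *gata5*, against 11.2% of all genes. DESeq2 without mock control replicate 3, chosen after seeing the data, also called 0 of the 10. It called 305 of the 26903 genes with a p there, and 165 of the 27003 with a p from all libraries.

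**Figure D2:**
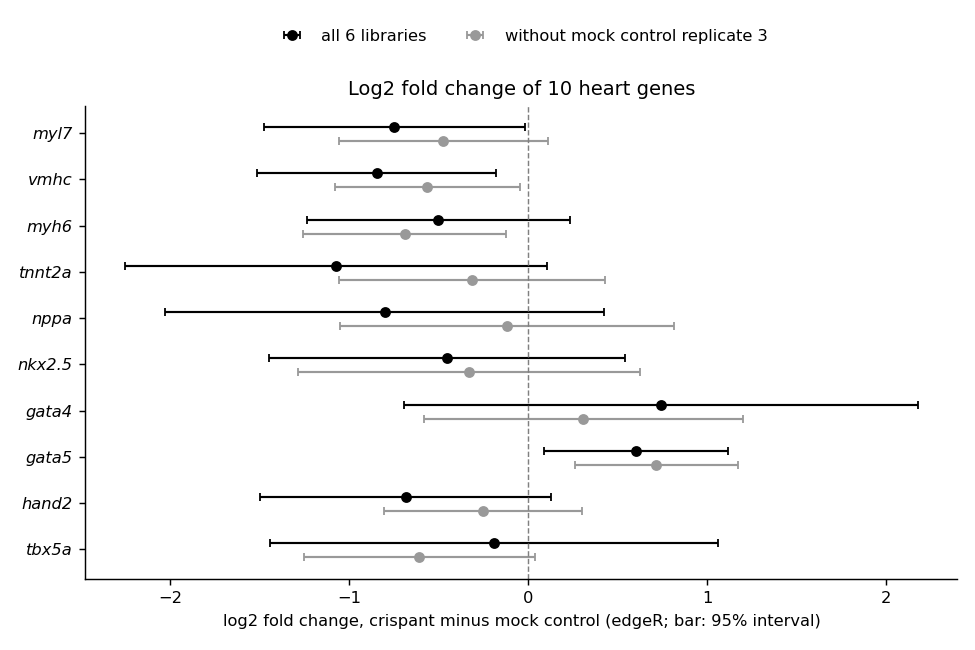
Log2 fold change of each heart gene (crispant minus mock control, edgeR; horizontal axis) with its 95% interval, from all 6 libraries (black) and without mock control replicate 3 (grey). The interval of *gata5* lies above 0 and that of *vmhc* below 0 with and without that library, before any adjustment for the number of genes tested, while *tnnt2a* moves from -1.07 to -0.32 and *nppa* from -0.80 to -0.12.

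Levels of different genes were compared per length, on the authors' FPKM values (read counts scaled by library and divided by gene length). In mock controls *myl7* was highest, at 25.9 ± 7.29 FPKM (SD, n = 3). *hand2*, *tnnt2a*, *gata5* and *vmhc* followed, with means between 10.3 and 13.8 FPKM. The remaining 5 genes had means between 1.26 FPKM for *tbx5a* and 3.19 FPKM for *nppa*. Neighbours in this order overlapped in their mock control libraries at every step except from *vmhc* to *nppa*. In crispants *gata5* stood first, at 19.5 ± 1.96 FPKM (SD, n = 3), above *myl7* at 15.5 ± 5.46 FPKM (SD, n = 3), but *myl7* in crispant replicate 2, at 21.7 FPKM, was as high as *gata5* in that library, at 21.6 FPKM. At the other end, *myh6* was at 1.42 ± 0.403 FPKM (SD, n = 3) in mock controls, near *tbx5a*, *gata4* and *nkx2.5*, with means between 1.26 and 2.60 FPKM, and below *vmhc* at 10.3 ± 3.31 FPKM (SD, n = 3). The annotated *myh6* has a length of 5935 bases, equal to its span on the chromosome, so that its model holds no intron.

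Ratios within a library do not depend on how libraries were scaled to each other. The counts of *gata5* were 0.840, 1.06 and 0.728 times those of *myl7* in mock control replicates 1, 2 and 3, and 2.63, 1.72 and 2.53 times in the crispants. Every crispant library lay above every mock control library, with a mean difference of 1.38 on the log2 scale, and of 1.26 without mock control replicate 3. The ratio joins the gene that was higher in every crispant to one that was lower on average, so that it is a description and was not tested. The ratios of the other 8 genes to *myl7* overlapped between the groups. For *vmhc* the ratio to *myl7* was 1.57, 1.96 and 1.80 in mock controls and 1.70, 1.44 and 2.02 in crispants, a mean difference of -0.055 on the log2 scale, which was less than the spread between replicates. For *hand2* it was 0.675, 0.515 and 0.739 in mock controls and 0.686, 0.626 and 0.785 in crispants.

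The balance of ventricular to atrial myosin was read from the ratio of *vmhc* to *myh6* counts. It was 4.66, 5.82 and 14.2 in mock controls and 4.84, 7.72 and 5.02 in crispants. Mock control replicate 3 lay far above the other 5 libraries, which overlapped. The mean difference of -0.35 on the log2 scale did not exceed the spread (exact two-sided permutation test, p = 0.7, where the smallest p that 3 libraries against 3 allow is 0.1). The difference was 0.13, in the opposite direction, without mock control replicate 3 (exact two-sided permutation test, p = 0.8).

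Relative to the average of the 5 transcription factor genes, the average of the 4 contractile genes was lower in crispants. The ratio of their geometric mean levels was 2.32, 2.54 and 5.42 in mock controls and 1.56, 1.97 and 1.74 in crispants, with no overlap between the groups. The mean difference was -0.86 on the log2 scale, and without mock control replicate 3 it was -0.47. The 5 transcription factor genes did not move alike. Relative to *myl7*, the mean log2 difference was 1.38 for *gata5*, 1.81 for *gata4* and 0.87 for *tbx5a*, but 0.21 for *nkx2.5* and 0.13 for *hand2*. Without mock control replicate 3, where *gata4* and *tbx5a* had 17 and 33 counts, these 2 were at 0.79 and -0.079. The score of contractile to transcription factor genes is a description over the chosen genes and was not tested. Its genes, like the ratio of *vmhc* to *myh6*, were chosen with earlier results of these data known.

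**Figure D3:**
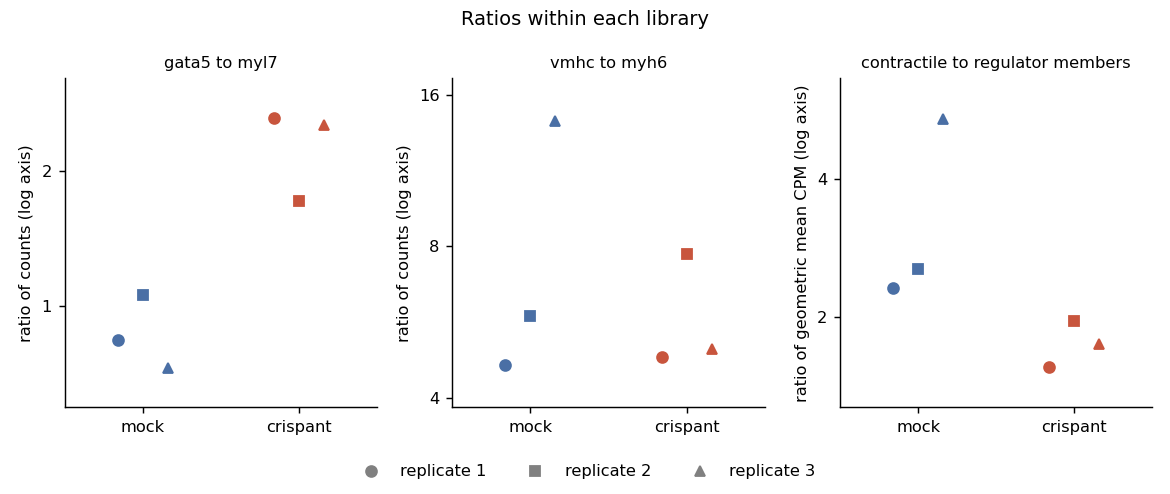
Ratios within each library on log axes: *gata5* to *myl7* counts, *vmhc* to *myh6* counts, and the geometric mean level of the 4 contractile genes to that of the 5 transcription factor genes. Each symbol is a library; the groups lie apart in the left and right panels, and in the middle panel mock control replicate 3, at 14.2, stands above the other 5 libraries.

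Further heart genes were taken from lists written from general knowledge. Of 20 tested genes of the heart sarcomere other than the 4 above, 17 had a log2 fold change below 0, with a median of -0.40, and 0 were called. Without mock control replicate 3, 16 of the 20 were below 0 and the median was -0.21. Much of the RNA in this list came from genes that are also expressed in skeletal muscle, such as the actin genes *acta1b* and *actc1a*, with mock control means of 1279.7 and 1412.4 CPM (named after their values were seen), and the skeletal muscle list described further on was lower as well. The share below 0 over all genes tested was 54.5%, and 48.8% without that library. *mybpc3*, which encodes cardiac myosin-binding protein C, had 59.4, 55.5 and 88.4 CPM in mock controls and 20.9, 30.02 and 31.9 CPM in crispants. Its crispant libraries all lay below its mock control libraries. It was the only gene of the 20 with groups apart in this direction, or 5%, against 5.44% of all genes tested. Its log2 fold change was -1.30 (standard error 0.26, adjusted p = 0.397, edgeR with Benjamini-Hochberg adjustment) with all libraries and -1.04 without mock control replicate 3. *vmhcl*, the ventricular myosin heavy chain-like gene, had the lowest log2 fold change of the list, at -1.44 (standard error 0.43, adjusted p = 0.681, edgeR with Benjamini-Hochberg adjustment), with 24.6, 11.8 and 26.0 CPM in mock controls and 6.40, 4.80 and 11.8 CPM in crispants. Mock control replicate 2 and crispant replicate 3 were level, so that its groups overlapped narrowly. The highest value of the list was that of *tcap*, the titin cap gene of striated muscle, at 1.24 (standard error 0.80, and 0.80 without mock control replicate 3) with overlapping groups. The titin genes *ttna* and *ttnb*, which overlap each other on chromosome 9 and were picked once their values were known, were far lower in mock control replicate 3 than in any other library. *ttnb* had 658.8, 534.2 and 10.3 CPM in mock controls and 262.7, 247.0 and 193.1 CPM in crispants. The log2 fold change was -0.30 for *ttna* and -0.78 for *ttnb*, with overlapping groups. Without mock control replicate 3 these values were -0.82 and -1.33. The groups of both then lay apart with crispants lower, as did 14.3% of all genes.

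Of 10 tested genes of calcium handling and excitation, 8 were below 0, with a median of -0.22, and of -0.27 without mock control replicate 3. Among those with a mean of at least 50 counts, values ran from *cacna1c*, the L-type calcium channel, at -0.48 (standard error 0.89, and -1.005 without that library) to *jph2*, a junctophilin, at 0.041. The gene below this range was *gja3*, with a mean below 50 counts and also named after its values were seen. *gja3* was at -0.83 (standard error 0.53, and -1.06 without mock control replicate 3), with overlapping groups in the main fit. The gene above the range was *nppb*, which encodes natriuretic peptide B and is a neighbour of *nppa* on chromosome 8. It had 6, 9 and 2 counts in mock controls and 21, 25 and 42 counts in crispants, with no overlap and a value of 2.18 on the log2 scale (standard error 0.64, adjusted p = 0.666, edgeR with Benjamini-Hochberg adjustment), and of 1.88 without mock control replicate 3. Its mean is below 50 counts, and it was named after its values were seen. In this list it alone had groups apart, with crispants higher, as did 6.5% of all genes tested. With all libraries in the main fit, the natriuretic peptide genes thus lay on opposite sides of 0, with *nppa* at -0.80. For *nppa* this rested on mock control replicate 3: the value was -0.12 without it, and 0.048 in limma-voom with sample quality weights.

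Of 24 further tested heart regulators, 16 were below 0 with a median of -0.095, and the groups of 5 lay apart with crispants lower, or 20.8%, against 5.44% of all genes tested. These were *irx1a* (log2 fold change -0.90), an Iroquois homeobox gene, *hey2* (-0.83), the *gridlock* gene of aorta and ventricle, *isl1* (-0.53), a gene of late-added heart cells and of motor neurons, and the nuclear receptor genes *nr2f1a* (-0.42) and *nr2f2* (-0.38), of which *nr2f1a* is needed for atrial identity. Most of these genes are also expressed outside the heart, and whole embryo RNA does not show in which tissue they differed. *irx1a* had 26.2, 29.98 and 49.7 CPM in mock controls and 17.6, 22.6 and 16.4 CPM in crispants. Leaving out mock control replicate 3, 14 of the 24 were below 0 with a median of -0.23, and the groups of 8 lay apart with crispants lower, where 14.3% of all genes did so. The values were then -0.56 for *irx1a*, -0.57 for *hey2*, -0.26 for *isl1*, -0.26 for *nr2f1a* and -0.46 for *nr2f2*. Of these genes, *nr2f1a* then had overlapping groups. In the other direction, *gata6* and *nkx2.7*, a homeobox gene that acts beside *nkx2.5*, were at 0.39 and 0.53 with all libraries, with overlapping groups for *nkx2.7*. *gata6* was the only gene of the 24 with groups apart and crispants higher, where 6.5% of all genes were. Without mock control replicate 3 they were at 0.52 and 0.84. The groups of both then lay apart with crispants higher, as did 15.1% of all genes.

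The tissues that lie next to the heart or share its genes gave these values. Of 12 tested genes of endocardium and valves, 7 were below 0, with a median of -0.062 and with *cdh5*, the cadherin of endothelium, lower in every crispant (log2 fold change -0.29). The gap of *cdh5* was narrow, from 40.3 CPM in crispant replicate 3 to 40.9 CPM in mock control replicate 3. It was the only gene of the 12 with groups apart, or 8.33%, where 5.44% of all genes lay apart in this direction. Without mock control replicate 3 the median was -0.31, with 8 of the 12 below 0. The extremes of this list were *vcanb* at -0.61 and *has2* at 0.53, both with overlapping groups, and without that library they were at -0.99 and 0.18. The 5 epicardium genes had a median of -0.14, between *tbx18* at -0.54 and *wt1b* at 0.17 among those with a mean of at least 50 counts, but without mock control replicate 3 the median was 0.048, on the other side of 0. For the 8 genes of the dorsal retina, which also expresses *tbx5a*, the median was -0.061, and -0.14 without mock control replicate 3. That list includes *tbx5a* itself, and it shares *aldh1a2* with the epicardium list and *tbx2b* with the other heart regulators. *bmp4* and *gdf6a*, dorsal signals of the retina and of other tissues, were higher in every crispant, at 0.27 and 0.45 (0.14 and 0.33 without that library), and *tbx2b* was lowest at -0.26. The groups of 2 of the 8 lay apart with crispants higher, where 6.5% of all genes tested did so. Of 13 tested fin bud genes 9 were below 0, with a median of -0.47 that was -0.14 without mock control replicate 3. In this list the actinodin gene *and2*, which also marks the fin fold of the tail, was lowest at -2.42 (standard error 0.85). It had 88.7, 7.09 and 51.3 CPM in mock controls and 5.73, 4.35 and 17.4 CPM in crispants, so that its groups overlapped. *dlx2a* was lower in every crispant at -0.49, and *prdm1a* and *grem1b* were higher in every crispant at 0.66 and 1.03. Without mock control replicate 3 these values were -0.33, 0.57 and 0.75. The gaps were narrow for *dlx2a*, from 35.6 to 36.4 CPM, and for *grem1b*, from 2.48 to 2.62 CPM. With a gene of fewer counts included, the groups of 3 of the 13 lay apart with crispants higher, against 6.5% of all genes tested. Those of 1 lay apart with crispants lower, against 5.44%.

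*gata4*, *gata5* and *gata6* are also genes of the endoderm, and the endoderm list was set beside them. Of its 11 tested genes 8 were below 0 with a median of -0.21, while without mock control replicate 3 only 5 were below 0 and the median was 0.028. Its summed level ran from 1767.8 to 3261.4 CPM in mock controls and from 1861.7 to 2463.5 CPM in crispants. Most of this sum came from *tfa* and *fabp1b.1*, with mock control means of 1977.9 and 334.7 CPM (named after their values were seen). The sum thus says little about the other genes of the list. *hnf4a*, a nuclear receptor gene of liver, gut and kidney, had 12.1, 9.67 and 11.03 CPM in mock controls and 23.4, 17.2 and 24.1 CPM in crispants. Its groups did not overlap, and its log2 fold change was 0.98 (standard error 0.25, adjusted p = 0.542, edgeR with Benjamini-Hochberg adjustment), and 1.01 without mock control replicate 3. *hnf1ba*, a homeobox gene of the same organs, was also higher in every crispant, at 0.44, while *pdx1*, the pancreas homeobox gene, was lowest of those with a mean of at least 50 counts, at -0.65, and at -0.19 without mock control replicate 3. The groups of 2 of the 11 lay apart with crispants higher, where 6.5% of all genes tested did so. No gene of the list was at 0 counts in every library, and the part of endoderm in the level of *gata5* was not tested.

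Skeletal muscle genes, like the contractile genes of the heart, were at lower mean levels in crispants. Of 25 tested, 23 were below 0, with a median log2 fold change of -0.62, and 0 were called. Their summed level was 42628, 30360 and 54627 CPM in mock controls and 26926, 30173 and 27425 CPM in crispants, without overlap but with crispant replicate 2 close to mock control replicate 2. Without mock control replicate 3, 22 of the 25 were below 0 and the median was -0.23, beside -0.52 for the 4 contractile heart genes. *myhz2*, a myosin heavy chain of fast muscle, was lower in every crispant (log2 fold change -0.76), as were *smyhc1* of slow muscle (-0.25) and *tnnc1b*, a slow troponin C (-1.05, but -0.28 without mock control replicate 3, where it had 278.2 CPM against 83.8 and 97.7 CPM in the other mock controls). These were 3 of the 25, or 12%, against 5.44% of all genes tested. Among those with a mean of at least 50 counts the extremes were *pvalb1*, a parvalbumin, at -1.16 (-0.21 without that library) and *myog*, the myogenin gene, at 0.022. The summed level of the 4 contractile heart genes was 0.205%, 0.375% and 0.303% of that of the skeletal muscle list in mock controls and 0.201%, 0.292% and 0.241% in crispants, with overlapping groups. The part of whole embryo muscle content in the values of the contractile heart genes was not tested.

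**Figure D4:**
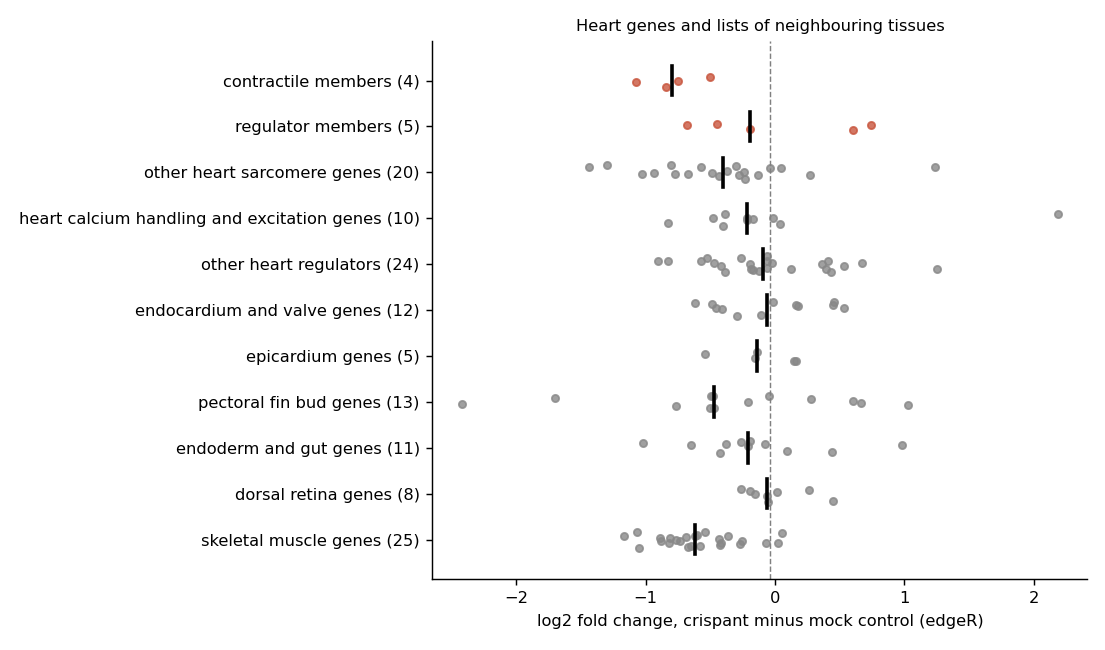
Log2 fold change (crispant minus mock control, edgeR, all 6 libraries; horizontal axis) of each tested gene in the heart gene groups (red) and in the other lists (grey), with the number of genes in brackets; black bars are medians and the dashed line is the median of all genes tested, -0.039. The contractile heart genes and the skeletal muscle genes lie mostly left of that line, with medians of -0.80 and -0.62, and the transcription factor genes on both sides of it.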

How the data were processed

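PolyA-selected, strand-specific libraries of 6 whole embryo samples were analysed, 3 per group; groups and replicate numbers are those of the sample titles. The authors deposited raw counts per Ensembl gene, made by a Novogene pipeline after HISAT2 alignment to GRCz10/danRer10; the counter, the versions and the annotation release are not given in the sources used here. They also deposited FPKM values, which equalled the count divided by gene length and by 1 constant per library, within 1% for 100% of genes with at least 100 counts in each library. Gene lengths are those the authors deposited, in bases. The table further holds the group means, log2 fold changes and p-values of the authors' own DESeq2 comparison, which were not used. No column per library was left unused, and the human cell samples were not analysed here.

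The quasi-likelihood functions of edgeR 4.0.16 (R 4.3.3), glmQLFit and glmQLFTest, were run on TMM-scaled counts without covariates, after filterByExpr with a minimum count of 10. Standard errors come from the log2 fold change and its F statistic, and 95% intervals from the same fit. The functions were tested on simulated counts. The paper's methods state biological replicates; labels name no separate clutches, so p-values measure the spread between these samples.

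The 10 genes, the 9 other lists and the ratios were chosen with earlier results of these data known. Named are the 10 genes and, from each list, any called gene, the highest and lowest log2 fold change with a mean of at least 50 counts, and genes of that mean whose groups do not overlap; exceptions are stated. Overlap was judged on CPM. The alternatives were DESeq2 size factors, no filter, a minimum mean count of 10, limma-voom (limma 3.58.1), DESeq2 1.42.0, the replicate number as a block, no minimum fold change, FPKM with a pseudocount of 1 for ratios, and each library left out. Added after seeing the data were limma-voom with sample quality weights and DESeq2 without mock control replicate 3.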

Additional observations from a re-analysis of the deposited data

How the results depend on the processing

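There were 3 libraries per group, and 1 mock control library stood apart from the rest. At the full threshold, 0 of the 10 genes were called under every alternative, including DESeq2, limma-voom and each library left out in turn. Many alternatives called almost no gene at all, so that a count of 0 there says little about the 10 genes. Over all genes, limma-voom, DESeq2 size factors, the minimum mean count and the replicate block called 0, and no filter called 2. Leaving out mock control replicate 1 gave 1 gene, leaving out replicate 3 gave 20, and each other library gave 0. DESeq2 called 165 genes, or 305 without mock control replicate 3, and limma-voom with sample quality weights 324. With no minimum fold change, limma-voom with sample quality weights, added after seeing the data, gave 1 gene, *vmhc*. Over the 10 genes and 14 alternatives each, 136 of 140 log2 fold changes kept their sign. The exceptions were *tbx5a*, at 0.049 in limma-voom, 0.069 with the replicate block and from -0.61 to 0.24 with each library left out, reversed only without mock control replicate 1, and *nppa*, at 0.048 in limma-voom with sample quality weights; the cause was not tested. Of 169 medians of gene lists under an alternative, 10 moved by more than the spread between replicates. That of the 5 transcription factor genes, -0.19, was 0.049 in limma-voom, 0.069 with the replicate block and 0.24 without mock control replicate 1. With sample quality weights the skeletal muscle median went from -0.62 to -0.18, that of the other heart regulators from -0.095 to -0.37 and that of *nppa*, alone in its list, to 0.048. The epicardium median was -0.27 without mock control replicate 1 and 0.048 without replicate 3, where those of fin bud genes and the GATA family were -0.14 and 0.31. The log2 difference of the *vmhc* to *myh6* ratio lay between -0.67 and 0.13 with each library left out, reversing, at 0.13, without mock control replicate 3, and was -0.46 on FPKM. The difference of contractile to transcription factor genes lay between -1.09 and -0.47 with each library left out and was -0.68 on FPKM.

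Deviations from the group means correlated across genes at 0.25, -0.049 and -0.16 between libraries with the same replicate number. Pairs with different numbers ran from -0.44 to 0.32. With 3 libraries per group, these values cannot decide whether equal numbers mark a pairing. With the replicate number as a block, edgeR called 0 of the 10 genes and 0 genes in all. In that fit 2 of the 10 had an unadjusted p under 0.05, against 957 of all 20812 genes tested. With all libraries in the main fit, the 95% interval spanned 0 for *gata4*, *nkx2.5*, *nppa* and *tbx5a*, at 17 to 263 counts per library. It also spanned 0 for *myh6*, *tnnt2a* and *hand2*, at 170 to 989 counts, but not for *myl7*, *vmhc* and *gata5*.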
